A study of Saccharomyces cerevisiae with 60 samples.

Results

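Budding yeast depleted of Hsf1 and held for 30 min at 42 °C was compared with depleted cells at 25 °C labelled 0 min. No 25 °C group held for 30 min is among the labels, so heat and the time passed cannot be told apart. The members are the 3 libraries of the Hsf1-depleted 42 °C group and the 3 libraries of the Hsf1-depleted 25 °C group, 6 of 60 libraries in all, chosen by their labels. All strains were W303 cells whose Hsf1 carries an anchor-away tag, grown in YPD-A medium at 25 °C. In anchor-away, rapamycin couples a tagged nuclear protein to a partner that carries it out of the nucleus, so the factor is removed from chromatin while its gene stays intact. Hsf1-depleted cells were given rapamycin for 45 min at 25 °C before heat, and their MSN2 and MSN4 genes were intact. Cells called double loss lacked MSN2 and MSN4 and were also given rapamycin. Cells called wild type had intact MSN2 and MSN4 and were given the solvent DMSO in place of rapamycin, but they carried the same Hsf1 tag. Against wild type, loss of Hsf1 and exposure to rapamycin therefore cannot be told apart. The residual nuclear Hsf1 was not measured in these files. Poly(A) RNA was sequenced, with 3 libraries per group. Whether replicates came from separate cultures is not given in the labels, and p-values then reflect the spread among these libraries, which may be technical.

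Hsf1 is the heat shock transcription factor. It binds repeats of a short inverted motif, the heat shock element, and drives chaperone genes, whose products keep proteins folded when the temperature rises. Msn2 and Msn4 are a related pair of zinc finger activators that enter the nucleus under many stresses and bind the stress response element upstream of genes for antioxidant enzymes, carbohydrate stores and membrane and cell wall proteins. Heat also lowers the mRNAs of the protein synthesis machinery in yeast. Genes such as HSP26 and HSP104 are known targets of both branches.

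The deposited counts summed to between 4595148 and 5155644 in the Hsf1-depleted 42 °C libraries, and to between 4132728 and 6625014 in the Hsf1-depleted 25 °C libraries. Levels below, called CPM, are counts scaled to a common library size with the trimmed mean of M-values (TMM). In CPM, 0 counts in a library leave a level of up to 0.661 at 42 °C and up to 1.089 at 25 °C, a limit that covers counting error only. CPM is not per length, so levels are compared between groups for 1 gene and not between genes. Replicate 1 of the Hsf1-depleted 25 °C group was the fourth farthest of the 60 libraries from its own group, and results that turn on it are given with and without it. MSN2 had 137.5 to 138.5 CPM in Hsf1-depleted cells at 42 °C and 103.6 to 246.6 CPM at 25 °C, and it was at 0 in the double loss libraries of both conditions. MSN4 had 106.0 to 160.2 CPM at 42 °C and 167.9 to 261.5 CPM at 25 °C, and it was likewise at 0 in those double loss libraries. HSF1 mRNA had 199, 248 and 203 CPM in Hsf1-depleted cells at 42 °C, against 136.5, 65.05 and 100.8 CPM at 25 °C, and the groups did not overlap. Its log2 fold change was 1.11 ± 0.21 (SE; adjusted p = 9.7e-06, edgeR quasi-likelihood test), or 0.96 without replicate 2 of the 25 °C group, short of the size threshold given below. Since anchor-away moves the protein, this mRNA does not check the depletion.

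Heat changed more genes than it left uncalled in Hsf1-depleted cells. A gene is said to rise or fall where the edgeR quasi-likelihood test gave an adjusted p under 0.05 (Benjamini-Hochberg over all genes tested) and the log2 fold change was at least 1 in size. Of 6070 genes tested, 1808 (29.8%) rose and 1651 (27.2%) fell in Hsf1-depleted cells at 42 °C relative to 25 °C. All 3 libraries at 42 °C lay above all 3 at 25 °C for 35.6% of genes and below them for 32.3%, and this held for 1751 of the genes that rose and 1567 of those that fell. Changes were large, since 397 genes rose and 367 fell by at least 4 on the log2 scale. The median log2 fold change over all genes was 0.009, and 0.253 with library totals in place of TMM. TMM centres the typical gene near 0, so rises and falls are relative to that centre. In the authors' deposited table, 1830 genes were up and 1610 were down for the same contrast, 1757 and 1598 of them also called here in the same direction, with 0 called in opposite directions.

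Single genes took large shares of the counts at each temperature. These shares are not per length and do not rank the genes by abundance. At 42 °C Hsf1-depleted cells gave means of 2.25% of counts to SED1 (a cell wall glycoprotein), 2.115% to the vacuolar protease gene PRB1, 2.01% to the cell wall gene HSP150 and 1.89% to TSL1 (a subunit of trehalose synthase). At 25 °C they gave 4.27% to PDC1 (pyruvate decarboxylase) and 2.77% to CDC19 (pyruvate kinase). PRB1 had 17250, 21860 and 20420 CPM at 42 °C, against 833, 315 and 644 CPM at 25 °C. Ribosomal protein genes together held 0.253% ± 0.037 of all counts at 42 °C and 9.5% ± 1.9 at 25 °C (mean ± SD, n = 3 each). The 45 general stress genes of Msn2/4 held 9.59% ± 2.1 of counts at 42 °C and 0.436% ± 0.16 at 25 °C (SD, n = 3 each).

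**Figure D1:**
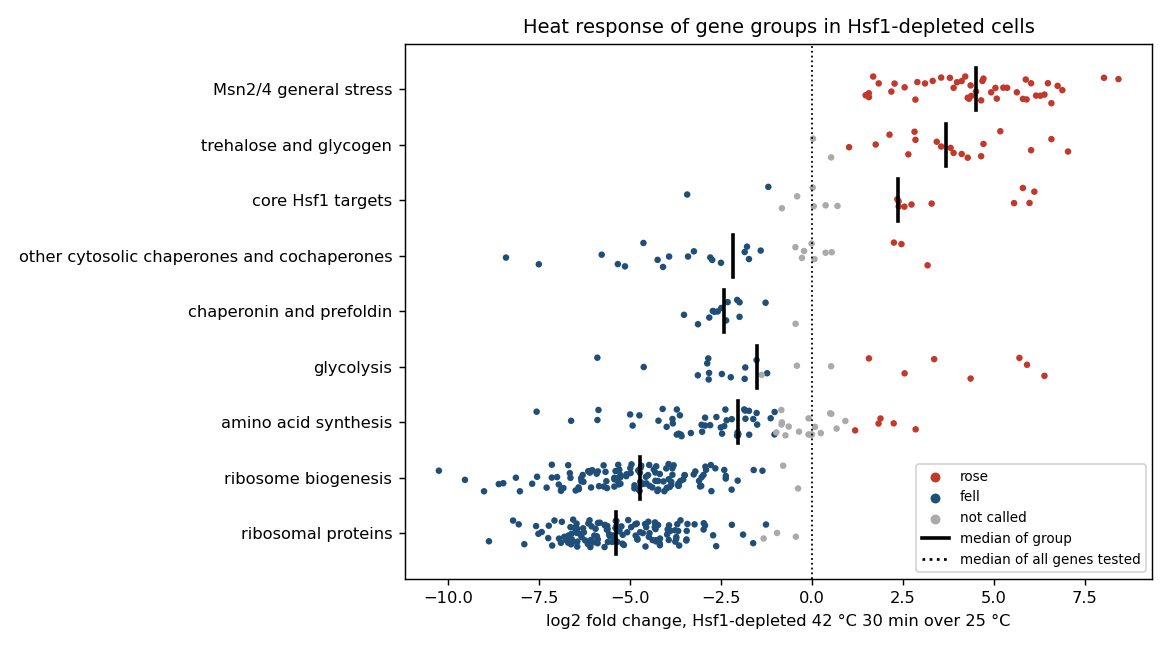
Log2 fold change of each gene in 9 gene groups, Hsf1-depleted cells at 42 °C for 30 min over 25 °C, coloured by whether the gene rose, fell or was not called (points jittered vertically). Thick bars are group medians and the dotted line is the median of all 6070 genes, 0.009. The 45 general stress genes lie to the right with a median of 4.51, the 18 core Hsf1 targets spread on both sides of 0, and the ribosomal proteins lie to the left with a median of -5.395.

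The genes that Hsf1 itself controls fell into unlike classes in Hsf1-depleted cells. Of 18 core Hsf1 targets, 10 rose, 2 fell and 6 were not called in Hsf1-depleted cells, with a median log2 fold change of 2.36. There 29.8% of all genes rose and 27.2% fell. In wild type all 18 rose, with a median of 4.18, beside 30.2% of all genes that rose there. The difference of the 2 responses (Hsf1-depleted minus wild type) was tested for each gene in the same edgeR fit, and 40 genes (0.659%) were called higher and 158 (2.6%) lower in Hsf1-depleted cells over the whole table. Among the 18 core targets 14 were lower and 0 higher, with a median difference of -2.34. With library totals in place of TMM, 9 of the 18 were lower. Their summed share of counts was 0.629% ± 0.037 in Hsf1-depleted cells at 42 °C and 7.5% ± 0.76 in wild type at 42 °C (SD, n = 3 each). Before heat it was 0.0795% ± 0.017 in Hsf1-depleted cells and 0.5% ± 0.13 in wild type at 25 °C (SD, n = 3 each), so the starting levels were also apart.

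**Figure D2:**
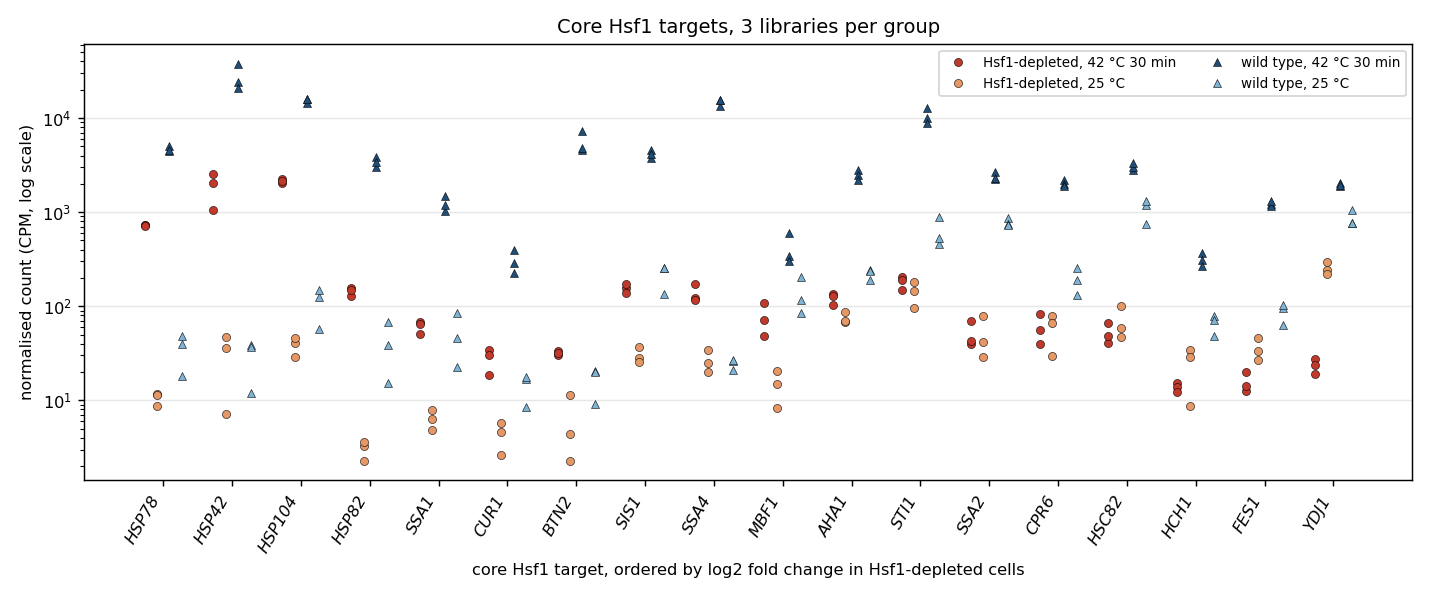
CPM of the 18 core Hsf1 targets in each library, on a log axis, for Hsf1-depleted and wild-type cells at 42 °C for 30 min and at 25 °C (3 libraries per group, 1 point each). Genes run from the largest rise in Hsf1-depleted cells, HSP78, at the left to the largest fall, YDJ1, at the right. In Hsf1-depleted cells HSP78, HSP42 and HSP104 stand far above their 25 °C levels, while STI1, SSA2, CPR6 and HSC82 overlap with theirs.

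The first class rose strongly. HSP104, the hexameric disaggregase that pulls proteins out of aggregates, had 2044, 2253 and 2132 CPM in Hsf1-depleted cells at 42 °C, against 40.3, 29.03 and 46.1 CPM at 25 °C. The groups lay far apart and the log2 fold change was 5.80 ± 0.32 (SE; adjusted p = 1.7e-20, edgeR). HSP42, a small heat shock protein that gathers misfolded proteins, had 1067, 2519 and 2037 CPM at 42 °C, against 47.2, 7.15 and 35.8 CPM at 25 °C. HSP78, the mitochondrial relative of HSP104, had 736, 737 and 714 CPM at 42 °C, against 11.6, 8.75 and 11.3 CPM at 25 °C. Log2 fold changes were 5.98 ± 0.51 for HSP42 and 6.12 ± 0.37 for HSP78. HSP26, the other cytosolic small heat shock protein and a known dual target not in the core list, had 8888, 20390 and 14950 CPM at 42 °C, against 24.7, 4.52 and 8.86 CPM at 25 °C. Its log2 fold change of 10.25 ± 0.77 was the second largest under the naming rule (adjusted p = 3.9e-16, edgeR). HSP30, which encodes a plasma membrane protein, rose by 9.0 ± 0.84, with 1656 to 2928 CPM at 42 °C and 1.90 to 11.3 CPM at 25 °C.

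The rises of HSP104, HSP42, HSP78, HSP26 and HSP30 were larger than in cells that also lacked Msn2 and Msn4. Double loss cells at 42 °C had 137, 157 and 195 CPM of HSP104, and the response in Hsf1-depleted cells exceeded theirs by 3.74 ± 0.39 on the log2 scale (adjusted p = 6.3e-10, edgeR). For HSP42 the difference was 5.06 ± 0.62, and the gene was not called in double loss, with 28.6 to 35.7 CPM at 42 °C and 9.88 to 20.3 CPM at 25 °C. HSP78 differed by 3.68 ± 0.44, HSP26 by 5.29 ± 0.83 and HSP30 by 5.31 ± 0.98. HSP26 still rose in double loss cells, by 4.97 ± 0.64. HSP104, HSP42 and HSP78 were the 3 of 18 core targets called higher than in double loss. HSP82, which rose by 5.56 in Hsf1-depleted cells, was not called different from double loss. The difference of response from wild type was -3.895 ± 0.61 for HSP42, which had 20880 to 37760 CPM in wild type at 42 °C. For HSP104 it was -1.33 ± 0.37, with 14560 to 16010 CPM in wild type at 42 °C, and for HSP30 it was -3.26 ± 0.96. These last differences were called (adjusted p = 0.030 and 0.040, edgeR), but the calls for HSP104 and HSP30 were lost with library totals (-0.49 and -2.36) and without replicate 1 of the Hsf1-depleted 25 °C group (-1.33 and -2.25), and without any of several other single libraries. The response of HSP78 was not called different from wild type (-0.93 ± 0.42), although its level at 42 °C was 4519 to 4996 CPM in wild type.

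The second class rose weakly. SSA4, the Hsp70 chaperone that is nearly silent before heat, had 170.5, 121.8 and 117.3 CPM in Hsf1-depleted cells at 42 °C, against 34.5, 24.9 and 19.9 CPM at 25 °C. Wild-type cells reached 13500, 15550 and 15680 CPM at 42 °C and had 20.99 to 26.6 CPM at 25 °C. The response of SSA4 was 2.38 ± 0.32 in Hsf1-depleted cells and 9.24 ± 0.43 in wild type, and the difference of -6.86 ± 0.47 was the lowest of all genes under the naming rule (adjusted p = 7.6e-16, edgeR). BTN2, a sorting factor for misfolded proteins, had 33.5, 30.5 and 32.2 CPM at 42 °C, against 11.3, 4.38 and 2.29 CPM at 25 °C in Hsf1-depleted cells, and 4637 to 7294 CPM in wild type at 42 °C. Its paralog CUR1 rose by 2.74 ± 0.36, and SIS1, an Hsp40 co-chaperone, by 2.38 ± 0.25. Both responses were lower than in wild type, with log2 differences of -1.65 ± 0.47 for CUR1 and -1.90 ± 0.33 for SIS1, which library totals moved to -0.86 and -1.10 with neither called. The CUR1 call was also lost without replicate 1 of the Hsf1-depleted 25 °C group (-1.48) and without any of 4 other single libraries. SSA4 and BTN2 were not called different from double loss, where SSA4 rose by 1.67 ± 0.31. CUR1 and SIS1 were not either, but CUR1 was called higher without replicate 1 of the Hsf1-depleted 25 °C group (1.43) and without any of 3 other single libraries. SIS1 was called higher without replicate 3 of that group (1.04) or replicate 3 of double loss at 42 °C (1.05).

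HSP82, SSA1 and MBF1 rose without a called difference from wild type or from double loss. HSP82, the heat-inducible Hsp90, had 156.6, 128.2 and 148.6 CPM in Hsf1-depleted cells at 42 °C, against 3.27, 3.65 and 2.29 CPM at 25 °C, a log2 fold change of 5.56 ± 0.39. Wild-type cells had 2999 to 3857 CPM of HSP82 at 42 °C and 15.5 to 67.99 CPM at 25 °C, so the levels differed at both temperatures while the difference of the 2 responses was -0.83 ± 0.48. SSA1, an Hsp70, rose by 3.29 ± 0.31, and MBF1, a transcriptional coactivator, by 2.35 ± 0.42. The difference of SSA1 from wild type (-1.31 ± 0.41) was not called. It passed the threshold without replicate 1 of wild type at 25 °C (-1.875), without replicate 3 of the Hsf1-depleted 25 °C group (-1.485) and with DESeq2 (-1.36). From double loss, SSA1 was called higher without replicate 2 of double loss at 25 °C (1.24). HSP82 and HSC82, and likewise SSA1 and SSA2, are near-identical copies whose reads the counting could have split or dropped, so their levels are uncertain.

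The third class did not respond or fell. STI1, which links Hsp70 to Hsp90, had 149, 205 and 190 CPM in Hsf1-depleted cells at 42 °C, against 180, 95.7 and 145 CPM at 25 °C. The groups overlapped and the change of 0.38 ± 0.25 was not called, while wild type reached 8790 to 12800 CPM at 42 °C. AHA1, an activator of Hsp90, changed by 0.70 ± 0.18, short of the threshold on size. CPR6 and HCH1, both Hsp90 co-chaperones, changed by 0.02 ± 0.45 and -0.83 ± 0.47, and SSA2 and HSC82 by 0.05 ± 0.24 and -0.41 ± 0.34. All 6 responses were lower than in wild type, with log2 differences between -1.58 for SSA2 and -3.70 for STI1. With library totals SSA2 (-0.64) and HSC82 (-1.10) were not called different, nor was HSC82 without replicate 2 of the Hsf1-depleted 25 °C group (-1.53) or of wild type at 25 °C (-1.70). Without replicate 1 of the 25 °C group HCH1 passed as a fall (-1.12).

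YDJ1, the main cytosolic Hsp40 and a partner of Hsp70, fell. It had 27.7, 19.2 and 23.6 CPM in Hsf1-depleted cells at 42 °C, against 241.8, 298.7 and 221.6 CPM at 25 °C, without overlap. The log2 fold change was -3.43 ± 0.21 in Hsf1-depleted cells, -2.17 ± 0.20 in double loss and 1.17 ± 0.19 in wild type. The difference from wild type was -4.61 ± 0.28 (adjusted p = 9.9e-18, edgeR), and wild type already held 760.4 to 1061 CPM at 25 °C. FES1, a nucleotide exchange factor of Hsp70, had 19.9, 12.4 and 14.1 CPM at 42 °C, against 26.9, 46.4 and 33.5 CPM at 25 °C. Its response was -1.20 ± 0.36 in Hsf1-depleted cells and 3.82 ± 0.38 in wild type. The fall of FES1 was below the size threshold with library totals (-0.97) and without replicate 2 of either temperature (-0.98 at 42 °C and -0.88 at 25 °C).

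The sequences upstream of these genes are printed to show which of the 2 factors' motifs they hold. For each gene the 90 bases of the 500 upstream of the start codon with the most motif bases are given, 5′ to 3′ along the gene's strand, from the R64 reference genome of strain S288C, not of W303. Capitals mark TTCNNGAA or GAANNTTC (2 repeats of the heat shock element), the same extended by 1 more alternating repeat at the same spacing (3 repeats, which contain the shorter form), and AGGGG or CCCCT (the stress response element core), searched on both strands. First are 4 genes that rose strongly and more than in double loss.
HSP42, plus strand, chrIV:806378-806467: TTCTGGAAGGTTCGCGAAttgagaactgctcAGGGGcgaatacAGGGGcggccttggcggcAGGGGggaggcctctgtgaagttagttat
HSP104, plus strand, chrXII:88321-88410: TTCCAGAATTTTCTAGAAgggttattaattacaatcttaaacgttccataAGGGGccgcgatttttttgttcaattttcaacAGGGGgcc
HSP78, minus strand, chrIV:974401-974490: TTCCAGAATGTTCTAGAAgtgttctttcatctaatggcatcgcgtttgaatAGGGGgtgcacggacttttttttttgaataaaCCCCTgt
HSP26, plus strand, chrII:381676-381765: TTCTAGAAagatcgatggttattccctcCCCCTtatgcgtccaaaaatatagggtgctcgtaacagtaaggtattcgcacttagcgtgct
SSA4 follows, which rose weakly and holds both motifs.
SSA4, plus strand, chrV:364336-364425: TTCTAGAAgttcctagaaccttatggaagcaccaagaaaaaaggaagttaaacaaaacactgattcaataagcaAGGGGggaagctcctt
The next 4 genes did not rise in Hsf1-depleted cells and rose in wild type.
STI1, plus strand, chrXV:380811-380900: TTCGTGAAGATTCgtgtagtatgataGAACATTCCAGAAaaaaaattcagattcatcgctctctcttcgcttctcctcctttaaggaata
SSE1, minus strand, chrXVI:352372-352461: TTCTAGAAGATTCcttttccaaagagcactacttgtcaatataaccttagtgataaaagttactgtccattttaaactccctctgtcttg
ZPR1, plus strand, chrVII:915021-915110: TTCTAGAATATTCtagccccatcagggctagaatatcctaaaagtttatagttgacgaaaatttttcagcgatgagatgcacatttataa
FES1, minus strand, chrII:444775-444864: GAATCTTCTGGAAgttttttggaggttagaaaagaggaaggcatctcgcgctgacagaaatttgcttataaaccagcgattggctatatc
PGM2, the gene with the largest excess of response over double loss, is given last.
PGM2, minus strand, chrXIII:477818-477907: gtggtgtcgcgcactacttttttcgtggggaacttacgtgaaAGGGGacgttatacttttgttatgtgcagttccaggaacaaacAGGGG
HSP42, HSP104, HSP78, HSP26 and SSA4 each held 3 stress response element cores in their 500 bases, and PGM2 held 5 and no heat shock element. STI1, SSE1, ZPR1 and FES1 held 0 stress response element cores and 2 to 4 matches of the 2-repeat heat shock element.

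Over the core targets the same letters were counted. All 18 held the 2-repeat heat shock element, which 35.4% of 5624 promoters hold, and 10 held the 3-repeat form, which 1.51% hold. A stress response element core was present in 7 core targets, beside 34.7% of all promoters. Those 7 (HSP78, HSP42, HSP104, HSP82, SSA1, SSA4 and MBF1) all rose in Hsf1-depleted cells, with a median log2 fold change of 5.56. Of the 11 without one, 3 rose (CUR1, BTN2 and SIS1), and their median was 0.05. Of the 7 with one, HSP82, SSA1, SSA4 and MBF1 were not called different from double loss. In double loss 10 of the 18 core targets rose, beside 25.5% of all genes that rose there, and the median of the 18 was 1.42. The list is small and was chosen with results in view, so this is a description and was not tested. A match is not a bound site.

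Across the whole table the stress response element core was in 52.3% of the 1491 read promoters of genes that rose, 24.9% of the 1634 of genes that fell and 30.6% of the 2499 not called. It was in 71.7% of the promoters of genes whose response was higher than in double loss and in 17.5% of those lower. The 3-repeat heat shock element was in 14.7% of the promoters of genes whose response was lower than in wild type, against 1.51% of all promoters. It was in 1.95% of those of genes that rose in Hsf1-depleted cells. Divergent neighbours share windows, so promoters are not independent.

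Beyond the core list, chaperone genes mostly fell in Hsf1-depleted cells. Of 28 other cytosolic chaperones and co-chaperones, 3 rose and 18 fell, with a median log2 fold change of -2.18. Over all genes 29.8% rose and 27.2% fell. Most of the 28 fell in the other states too, 16 in wild type (6 rose, median -1.525) and 16 in double loss (1 rose, median -1.577). Called lower than in wild type were 7 of the 28 and higher 0, beside 2.6% and 0.659% of all genes. The 3 that rose in Hsf1-depleted cells were SSE2 (3.18 ± 0.37), SSA3 (2.46 ± 0.40) and APJ1 (2.25 ± 0.25), an Hsp110, an Hsp70 and an Hsp40. SSA3 and APJ1 responded less than in wild type, with log2 differences of -4.30 ± 0.56 and -3.55 ± 0.35, and SSE2 was not called different from wild type (-1.40 ± 0.49). Among the largest falls were the ribosome-bound Hsp70 genes SSB1 (-8.41 ± 0.58) and SSB2 (-7.51) and their partner ZUO1 (-5.78), which fell in wild type too and showed no called difference from it. The cytosolic chaperonin and prefoldin genes behaved likewise, with 13 of 14 that fell and 0 different from wild type. Over all genes 27.2% fell, and 0.659% responded more and 2.6% less than in wild type.

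SSE1, ZPR1 and YAR1 fell in Hsf1-depleted cells and rose in wild type. SSE1, the main Hsp110 exchange factor of Hsp70, had 74.5, 58.6 and 71.0 CPM in Hsf1-depleted cells at 42 °C, against 1268, 1114 and 729 CPM at 25 °C, a log2 fold change of -3.93 ± 0.22. In wild type it had 4125 to 4797 CPM at 42 °C and 1603 to 1924 CPM at 25 °C, a change of 1.32 ± 0.20. ZPR1, a chaperone of the elongation factor eEF1A, had 66.2, 66.5 and 60.6 CPM at 42 °C, against 471.0, 466.9 and 357.2 CPM at 25 °C in Hsf1-depleted cells. Its response was -2.74 ± 0.22 there and 3.11 ± 0.22 in wild type. YAR1, a chaperone of a small subunit ribosomal protein, changed by -1.85 ± 0.26 in Hsf1-depleted cells and 2.27 ± 0.26 in wild type. The 3 differences of response ran from -4.12 for YAR1 to -5.86 for ZPR1.

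In all, 15 genes were called in opposite directions in Hsf1-depleted and wild-type cells, and the difference itself was called for each of the 15. Opposite calls already need changes beyond the threshold in both, so a called difference was largely fixed in advance. Of the calls of a difference, that of SEC24 was lost without replicate 1 of the Hsf1-depleted 25 °C group (-1.55) and without any of 5 other single libraries. That of CSA1 was lost with library totals (-1.66) and without any of 4 single libraries. All but VPS62, that is 14, fell in Hsf1-depleted cells and rose in wild type. Besides SSE1, YDJ1, ZPR1, YAR1 and FES1 these were the mitochondrial co-chaperonin gene HSP10, the glycolytic genes TDH2, TDH3 and PGK1, the nucleotide phosphorylase gene APA1, the cell wall gene TIP1, the coat protein gene SEC24, CSA1 and YGR210C. The falls of SEC24 (-1.02 ± 0.41) and CSA1 (-1.11 ± 0.47) lie near the threshold. That of SEC24 was lost under each of 7 alternatives of scaling, filter, tool and samples or terms in the fit (-0.99 to -0.69), and that of CSA1 with library totals, with the compared groups alone and with the MSN-intact libraries. The fall of PGK1 was short of the size threshold with library totals (-0.95). Without replicate 1 of the 25 °C group TDH3 (-0.77) and SEC24 (-0.41) were not called, and without replicate 3 of that group CSA1 was not (-0.44). The fall of SEC24 was also not called without replicate 1 (-0.695) or 2 (-0.99) of the Hsf1-depleted 42 °C group. Nor was that of CSA1 without replicate 1 (-0.80), 2 (-1.18) or 3 (-1.12) of the 42 °C group. HSP10 had 65.2, 80.2 and 44.7 CPM at 42 °C, against 96.6, 184 and 220 CPM at 25 °C in Hsf1-depleted cells, a change of -1.40 ± 0.34. APA1 fell by 3.09 ± 0.28 on the log2 scale and rose by 1.71 ± 0.27 in wild type. VPS62 had 35.9, 47.95 and 40.6 CPM in Hsf1-depleted cells at 42 °C, against 9.80, 10.8 and 14.5 CPM at 25 °C. In wild type it had 3.93 to 7.41 CPM at 42 °C and 11.8 to 13.7 CPM at 25 °C. VPS62 lies next to BTN2 on the same strand of chromosome VII (770569 to 771972 and 772454 to 773686, build R64), and its difference of response of 3.11 ± 0.47 was the highest under the naming rule.

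**Figure D3:**
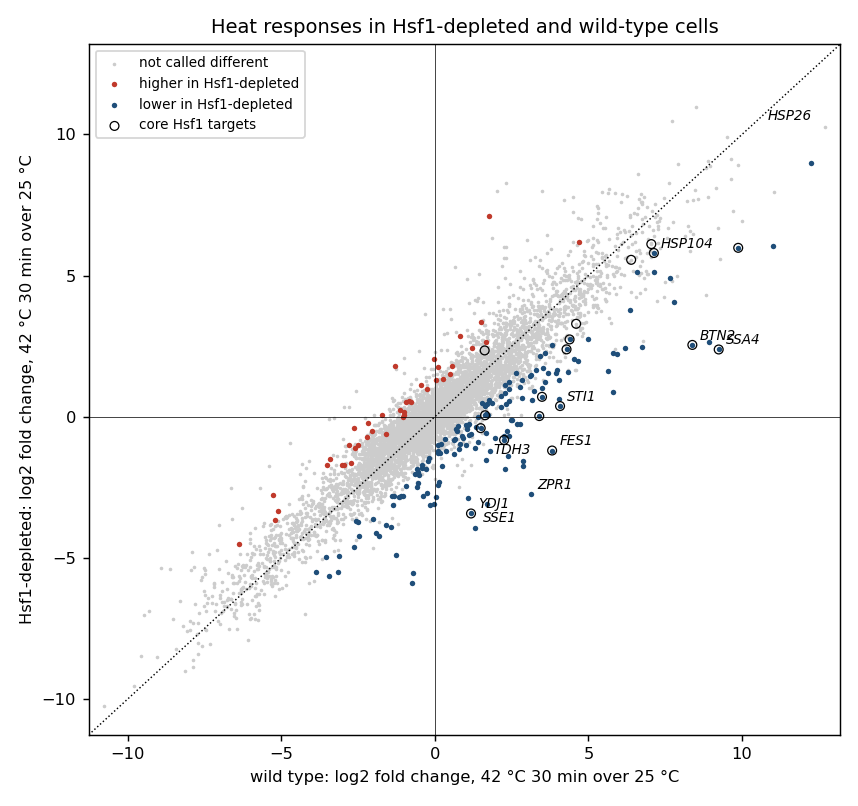
Log2 fold change of each of 6070 genes, 42 °C for 30 min over 25 °C, in Hsf1-depleted cells (vertical) against wild type (horizontal). Red points are the 40 genes whose response was called higher in Hsf1-depleted cells, blue points the 158 called lower, and circles the 18 core Hsf1 targets. Most genes lie along the dotted diagonal, and SSA4, BTN2, STI1, FES1, ZPR1, SSE1 and YDJ1 lie far below it.

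Organelle chaperones were counted next. Of 12 mitochondrial chaperones and proteases, 3 rose and 3 fell in Hsf1-depleted cells, near the shares of all genes (29.8% and 27.2%), and 5 responded less than in wild type, beside 2.6% of all genes. SSC1, the mitochondrial Hsp70, had 1443, 1960 and 1986 CPM at 42 °C, against 3033, 2261 and 2409 CPM at 25 °C in Hsf1-depleted cells, and 14900 to 16520 CPM in wild type at 42 °C. Its response of -0.52 ± 0.26 was not called, and the difference from wild type was -2.86 ± 0.37. HSP60, the mitochondrial chaperonin, differed from wild type by -2.94 ± 0.31. In the endoplasmic reticulum, 9 of 24 folding and stress genes rose and 2 fell, beside 29.8% and 27.2% of all genes, and 6 responded less than in wild type, beside 2.6%. KAR2, the Hsp70 of this compartment, rose to 6341, 4678 and 5987 CPM at 42 °C, against 875, 922 and 699 CPM at 25 °C in Hsf1-depleted cells. Its response of 2.77 ± 0.29 differed by -2.23 ± 0.39 from wild type and by -1.09 ± 0.39 from double loss, and the call from double loss was lost without replicate 2 of double loss at 42 °C (-0.65) and without any of 7 other single libraries. MPD1, a disulfide isomerase, rose by 4.17 ± 0.23 without a called difference from wild type or double loss.

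Glycolytic genes also responded less than in wild type. Of 23, 13 fell and 7 rose in Hsf1-depleted cells, with a median log2 fold change of -1.52, while in wild type 4 fell and 10 rose, with a median of 0.03. Over all genes 27.2% fell and 29.8% rose in Hsf1-depleted cells, and 29.5% fell and 30.2% rose in wild type. The difference from wild type was called lower for 12 of the 23 and higher for 0, beside 2.6% and 0.659% of all genes. ENO2, the enolase used in glucose, had 152, 132 and 102 CPM in Hsf1-depleted cells at 42 °C, against 9884, 6991 and 6209 CPM at 25 °C, a log2 fold change of -5.90 ± 0.46. Wild type had 4262 to 5403 CPM of ENO2 at 42 °C, and the difference of response was -5.15 ± 0.55. CDC19 fell by 2.84 ± 0.43 and PDC1 by 4.63 ± 0.46. Stress isozymes rose instead, with 6.39 ± 0.52 for TDH1, 4.36 ± 0.51 for GLK1 (a glucokinase) and 1.57 ± 0.32 for ENO1. The enolase pair and the TDH genes are close paralogs, and their split of reads is uncertain. The response of ENO1 differed from wild type by -2.76 ± 0.45.

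Further genes with the lowest differences from wild type under the naming rule were ATG41, an autophagy gene (-6.26 ± 0.84), TMA10, which encodes a ribosome-associated protein (-4.98 ± 0.91), LST8, a subunit of the TOR complexes (-4.91 ± 0.36), and OLA1, an ATPase (-4.82 ± 0.31). ATG41 rose in both, to 299 to 370.5 CPM in Hsf1-depleted cells and to 11800 to 20170 CPM in wild type at 42 °C. OLA1 fell to 13.7 to 20.99 CPM in Hsf1-depleted cells at 42 °C, against 796 to 821 CPM at 25 °C. After VPS62, the highest differences belonged to RPB5, an RNA polymerase subunit (2.50 ± 0.71), URA3 (2.24 ± 0.57) and KTR5, a mannosyltransferase (2.06 ± 0.38). RPB5 fell in both, with log2 fold changes of -2.78 ± 0.46 in Hsf1-depleted cells and -5.28 ± 0.55 in wild type. CIN5, a stress transcription factor, rose by 3.34 ± 0.38 in Hsf1-depleted cells and by 1.49 ± 0.35 in wild type, a difference of 1.85 ± 0.49. Without replicate 1 of the Hsf1-depleted 25 °C group RPB5 (2.12), URA3 (1.85) and CIN5 (1.87) were not called different, and other single libraries also decided these 3 calls. Nor was TMA10 called (-3.93) without replicate 3 of that group.

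The general stress genes rose in Hsf1-depleted cells. All 45 listed Msn2/4 general stress genes rose in Hsf1-depleted cells, beside 29.8% of all genes, with a median log2 fold change of 4.51 for the list. In wild type 44 of the 45 rose, beside 30.2% of all genes, and the list had a median of 5.37. In Hsf1-depleted cells 4 responses were called lower than in wild type (UBI4, ENO1, GRE3 and SPI1), beside 2.6% of all genes. CTT1, the cytosolic catalase, had 8438, 16000 and 14230 CPM in Hsf1-depleted cells at 42 °C, against 57.4, 24.2 and 66.6 CPM at 25 °C, and 8588 to 10270 CPM in wild type at 42 °C. Its response was 8.03 ± 0.55 (adjusted p = 1.9e-17, edgeR), and the difference from wild type was -0.44 ± 0.58. UBI4, the polyubiquitin gene, rose by 1.56 ± 0.20, with a difference from wild type of -2.37 ± 0.28. SED1 stood high at both temperatures and its change of 1.08 ± 0.61 was not called, but without replicate 1 of the 25 °C group it passed (1.66).

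The difference from double loss, which lacks Msn2 and Msn4 and was likewise depleted of Hsf1, was called higher for 562 genes (9.26%) and lower for 571 (9.41%). Among the 45 general stress genes it was higher for 33 and lower for 0, with a median of 3.38, beside a median of -0.15 over all genes. PGM2, a phosphoglucomutase, had 1312, 2042 and 1700 CPM in Hsf1-depleted cells at 42 °C, against 26.5, 15.5 and 35.6 CPM at 25 °C. Double loss cells had 4.91, 5.65 and 6.52 CPM at 42 °C and 12.1 to 15.4 CPM at 25 °C, where the gene fell. The difference of response was 7.30 ± 0.55 (adjusted p = 1.5e-13, edgeR), the highest under the naming rule. EGO4 (6.70 ± 1.5), DDR2 (6.68 ± 1.18), RGI1 (5.91 ± 0.67), CTT1 (5.78 ± 0.62) and IGD1 (5.61 ± 0.97), a glycogen debranching inhibitor, came next. EGO4 and DDR2 had at most 2.96 and 1.32 CPM in double loss libraries, near the 0-count limit, so the size of their differences rests on few counts. GRE1, a hydrophilin, rose by 6.76 in Hsf1-depleted cells and by 6.42 in double loss, with a difference of 0.33 ± 0.83 that was not called. HSP12, a membrane hydrophilin, had 1180, 1559 and 855 CPM at 42 °C, against 2.91, 31.1 and 24.1 CPM at 25 °C. Its difference from double loss, 1.63 ± 1.79, was not called, with double loss at 8.10 to 11.01 CPM at 42 °C and at 0.121 to 1.17 CPM at 25 °C.

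Carbohydrate store genes rose nearly together. Of 20 trehalose and glycogen genes 18 rose and 0 fell, beside 29.8% and 27.2% of all genes. The response exceeded that of double loss for 16, beside 9.26% of all genes. Called different from wild type were 0 of the 20, beside 0.659% of all genes called higher and 2.6% lower. TSL1 was called lower than in wild type without replicate 2 of the Hsf1-depleted 25 °C group (-2.20). TPS1 and TPS2, the synthase and phosphatase of trehalose, rose by 4.12 ± 0.30 and 4.28 ± 0.35. TPS2 had 2539, 3615 and 3665 CPM in Hsf1-depleted cells at 42 °C, against 222, 77.6 and 206 CPM at 25 °C. In double loss cells TPS1 and TPS2 changed by 0.12 ± 0.27 and -0.44 ± 0.31. TSL1 rose by 6.59 ± 0.55, and GAC1, which targets a phosphatase to glycogen synthase, by 7.04 ± 0.75. NTH1, a trehalase that breaks the sugar down, also rose, by 3.43.

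Of 34 oxidative defence genes, 14 rose and 5 fell, beside 29.8% and 27.2% of all genes, and 15 responded more than in double loss, beside 9.26%. Those that rose included CTT1, SRX1 (sulfiredoxin, 5.85), TSA2 (a stress peroxiredoxin, 4.94), GPX1 (a glutathione peroxidase, 4.83 ± 0.56) and SOD2 (mitochondrial superoxide dismutase, 2.54 ± 0.38). TRX1, a housekeeping thioredoxin, fell by 3.41. AHP1, a peroxiredoxin, was not called in Hsf1-depleted cells (-0.74), but its response differed from wild type by -2.68 ± 0.45 and from double loss by 3.19 ± 0.46.

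**Figure D4:**
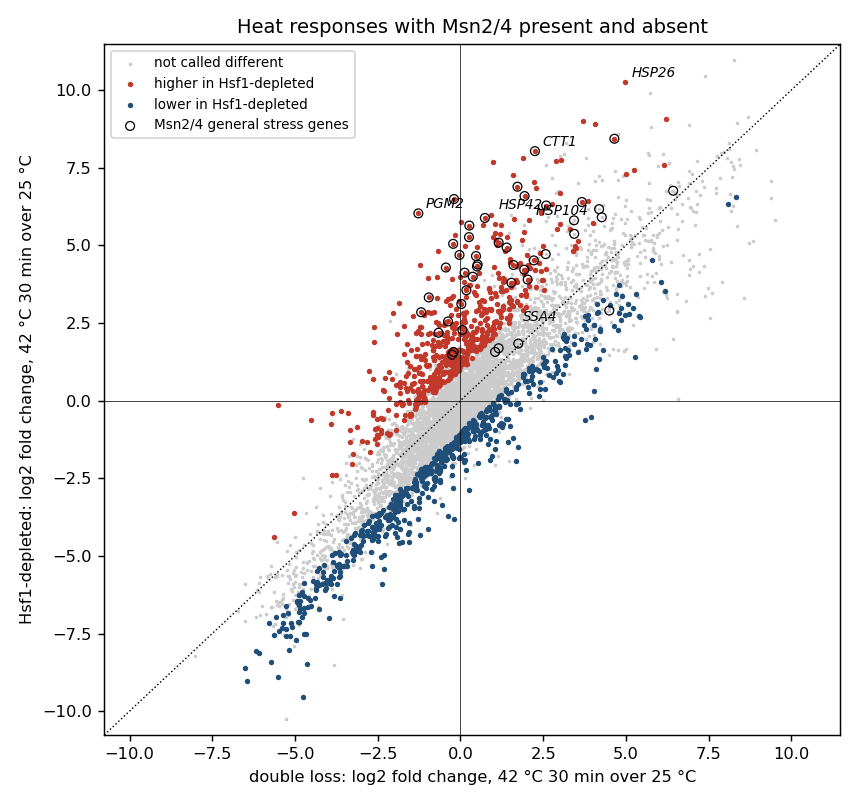
Log2 fold change of each of 6070 genes, 42 °C for 30 min over 25 °C, in Hsf1-depleted cells (vertical) against double loss cells (horizontal). Red points are the 562 genes whose response was called higher in Hsf1-depleted cells, blue points the 571 called lower, and circles the 45 Msn2/4 general stress genes. The circles for CTT1 and PGM2 stand far above the dotted diagonal, and SSA4 stays near it.

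The largest rises under the naming rule were spread over several functions. IRC16 had 24.5, 53.8 and 42.5 CPM at 42 °C and 0 counts in the 3 libraries at 25 °C, at least 60.9-fold higher against a floor of 3 counts per library, and it overlaps another gene. HXT5, a glucose transporter of slow-growing cells, had 3223, 3832 and 4053 CPM at 42 °C, against 10.5, 5.69 and 7.49 CPM at 25 °C (log2 fold change 8.91 ± 0.62). SPS100, a spore wall protein, had 1123, 1671 and 1903 CPM, against 5.08, 1.90 and 2.60 CPM at 25 °C (9.06 ± 0.43). FMP45, a membrane organising protein, rose by 8.43 ± 0.93, RGI1 by 7.79 ± 0.50 and PHM7 by 7.70 ± 0.59. TOS8, a homeobox factor, rose by 7.60 ± 0.36 and YPT53, a Rab GTPase of stress, by 7.71 ± 0.63. NAG1 (9.14 ± 0.68), OSW1 (8.10 ± 0.56), YPT53 and TOS8 rose in double loss cells as well, by 8.67 ± 0.67, 8.12 ± 0.54, 7.14 ± 0.64 and 6.15 ± 0.34. At 25 °C NAG1 had at most 0.458 CPM and OSW1 and YPT53 at most 0.363 CPM in a library, so their fitted fold changes rest on few counts.

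Most genes of spore formation rose. Of 36 meiosis and sporulation genes, 27 rose and 0 fell in Hsf1-depleted cells, beside 29.8% and 27.2% of all genes. Called different from wild type were 0 of the 36, beside 0.659% of all genes called higher and 2.6% lower. The summed share of counts of the 36 was 0.312% ± 0.015 at 42 °C and 0.0278% ± 0.0052 at 25 °C (SD, n = 3 each). Without SPS100, described above, it was 0.147% ± 0.011 at 42 °C and 0.0276% ± 0.0051 at 25 °C (SD, n = 3 each). IME1, the master regulator of entry to meiosis, had 344, 385 and 363 CPM at 42 °C, against 16.3, 4.08 and 8.40 CPM at 25 °C, and its change of 5.34 ± 0.36 stood beside 5.14 ± 0.36 in wild type and 5.52 ± 0.36 in double loss. Of 29 mating genes, 12 rose and 12 fell, beside 29.8% and 27.2% of all genes. The 5 alpha-specific genes in the list fell, with log2 fold changes of -7.17 to -2.82, and the 6 a-specific genes rose, with 1.52 to 4.54. Of these, STE2 (the alpha-factor receptor) rose to 53.9 CPM on average at 42 °C, against 10.7 CPM at 25 °C. AGA2, MFA1 and MFA2 were below 5 CPM on average in both groups. Features without a locus tag in the R64 gene table also rose, 310 of 434 (71.4%), with a median log2 fold change of 2.85, beside 1498 of 5636 (26.6%) of the others. In wild type 290 of those 434 rose and in double loss 318.

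Autophagy, signalling and transport genes completed the rises, counted here beside 29.8% of all genes that rose and 27.2% that fell. Of 34 autophagy genes, 25 rose and 0 fell, among them ATG8 (the ubiquitin-like membrane marker, 3.64) and ATG1 (the initiating kinase, 3.39). Of 40 stress transcription factors 20 rose and 8 fell. Glucose-linked repressors went both ways, with NRG1 up by 6.03 and MIG1 down by 2.80. XBP1 (5.80) and USV1 (4.69) rose, and USV1 was not called in double loss (-0.03). RPN4, the activator of proteasome genes, rose by 2.16. Of 33 proteasome genes 0 rose and 8 fell, near the 27.2% of all genes that fell. Of 12 measured hexose transporters and sensors 8 rose, and the transporters of high glucose HXT1 and HXT3 fell by 5.59 and 5.67.

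The protein synthesis machinery fell nearly as a whole. Of 135 ribosomal protein genes 132 fell and 0 rose, with a median log2 fold change of -5.395, and of 124 ribosome biogenesis genes 122 fell and 0 rose, with a median of -4.74. Over all genes 27.2% fell and 29.8% rose. RPL3, a large subunit protein, had 46.99, 29.9 and 20.3 CPM in Hsf1-depleted cells at 42 °C, against 3905, 3887 and 3171 CPM at 25 °C (-6.81 ± 0.34). NSR1, a nucleolar protein of rRNA processing, had 1.52, 2.18 and 1.76 CPM at 42 °C, against 1046, 1099 and 684 CPM at 25 °C (-9.02 ± 0.61; adjusted p = 1.4e-17, edgeR). The largest fall under the naming rule was that of NIP7, which had 0, 0.218 and 0 CPM at 42 °C, against 22.2, 107 and 56.7 CPM at 25 °C, so the size of its fall rests on a single library with a count. The others included RPS22A (-8.88 ± 0.52), the RNA helicase DBP2 (-8.61 ± 0.49), the box C/D proteins NOP1 (-8.14 ± 0.53), NOP58 (-7.70 ± 0.50) and NOP56 (-7.56 ± 0.54), and ARO4 of aromatic amino acid synthesis (-7.57 ± 0.42). Many ribosomal protein genes are pairs of near-identical copies, so the split between copies is uncertain.

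Few of these genes were called different from wild type, and over all genes 0.659% were called higher and 2.6% lower. Ribosomal protein genes had a median of -5.72 in wild type, where 133 of 135 fell, beside 29.5% of all genes. Of the 135, 1 was called different (RPL15A, 1.89 ± 0.46). That call was lost without replicate 1 of the Hsf1-depleted 25 °C group (1.60), replicate 1 of the Hsf1-depleted 42 °C group (1.63) or replicate 2 of wild type at 42 °C (1.67). In double loss the medians were -4.54 for ribosomal proteins and -3.62 for ribosome biogenesis. The response in Hsf1-depleted cells was lower than in double loss for 31 and 52 genes, beside 9.41% of all genes. It was higher for 1 gene of each list, beside 9.26%. Without replicate 1 of double loss at 42 °C, 16 ribosomal protein genes were lower, and without replicate 2 of the Hsf1-depleted 25 °C group 32 ribosome biogenesis genes were. NIP7 (-4.79 ± 1.29), NSA2 (-3.85 ± 0.96), RPS22A (-3.37 ± 0.60) and RLI1, a ribosome recycling ATPase (-3.09 ± 0.42), were among the 10 lowest differences from double loss. PRM7 and its neighbour BSC1 also were, since they rose in double loss by 3.75 ± 0.68 and 3.93 ± 0.65 and were not called in Hsf1-depleted cells. The PAC motif, GATGAG or CTCATC, was in 112 of the 124 ribosome biogenesis promoters (90.3%), beside 28% of all promoters, and AAAATTTT, the RRPE core, in 99 (79.8%), beside 12.9%. PAC was in 38.3% of the promoters of all genes that fell and RRPE in 26%.

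Growth-linked groups followed. Of 40 translation factors 36 fell, including YEF3, the fungal elongation factor (-7.34), and 0 rose. Of 39 RNA polymerase I and III genes 25 fell and 2 rose, 1 of them MAF1, the repressor of polymerase III (2.00 ± 0.20). Of 68 amino acid synthesis genes 46 fell and 5 rose, of 31 purine and pyrimidine genes 22 fell and 3 rose, and of 26 ergosterol genes 17 fell and 1 rose. Cell cycle genes fell too, with 16 of 28 G1/S and 20 of 30 G2/M genes that fell and 0 and 1 that rose. Fewer cells in a phase and less RNA per cell cannot be told apart in bulk RNA. In wild type 36 translation factors, 30 polymerase I and III, 47 amino acid, 23 purine and pyrimidine and 17 ergosterol genes fell. So did 18 G1/S and 20 G2/M genes there, beside 29.5% of all genes.

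The milder and shorter heat treatments of Hsf1-depleted cells were set beside the 42 °C, 30 min state. These comparisons share the same 3 libraries at 25 °C. Over all genes 16.1% rose and 15.2% fell after 10 min at 37 °C, 22.9% and 25.0% after 30 min at 37 °C, and 22.6% and 17.2% after 10 min at 42 °C. The general stress genes were at a median log2 fold change of 4.5 after 10 min at 37 °C, 5.37 after 30 min at 37 °C, 3.78 after 10 min at 42 °C and 4.51 after 30 min at 42 °C. Ribosomal protein genes were at -1.53, -4.81, -1.47 and -5.395 in the same order. RPL3 had 1865 to 2457 CPM after 10 min at 37 °C, 165 to 224 CPM after 30 min at 37 °C and 2180 to 2524 CPM after 10 min at 42 °C. HSP26 had 46.96 to 480.2 CPM after 10 min at 37 °C, 1901 to 3264 CPM after 30 min at 37 °C and 969.5 to 2255 CPM after 10 min at 42 °C. SSA4 had 27.5 to 50.1, 46.1 to 93.9 and 33.7 to 57.1 CPM in those conditions, below each library at 42 °C for 30 min. STI1 rose at 37 °C, by 1.04 ± 0.25 after 10 min and 1.30 ± 0.25 after 30 min, relative to 25 °C. The core Hsf1 targets had medians of 0.91, 1.38, 1.38 and 2.36, and meiosis and sporulation genes that rose numbered 10, 17, 22 and 27 of 36 along the 4 conditions.

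**Figure D5:**
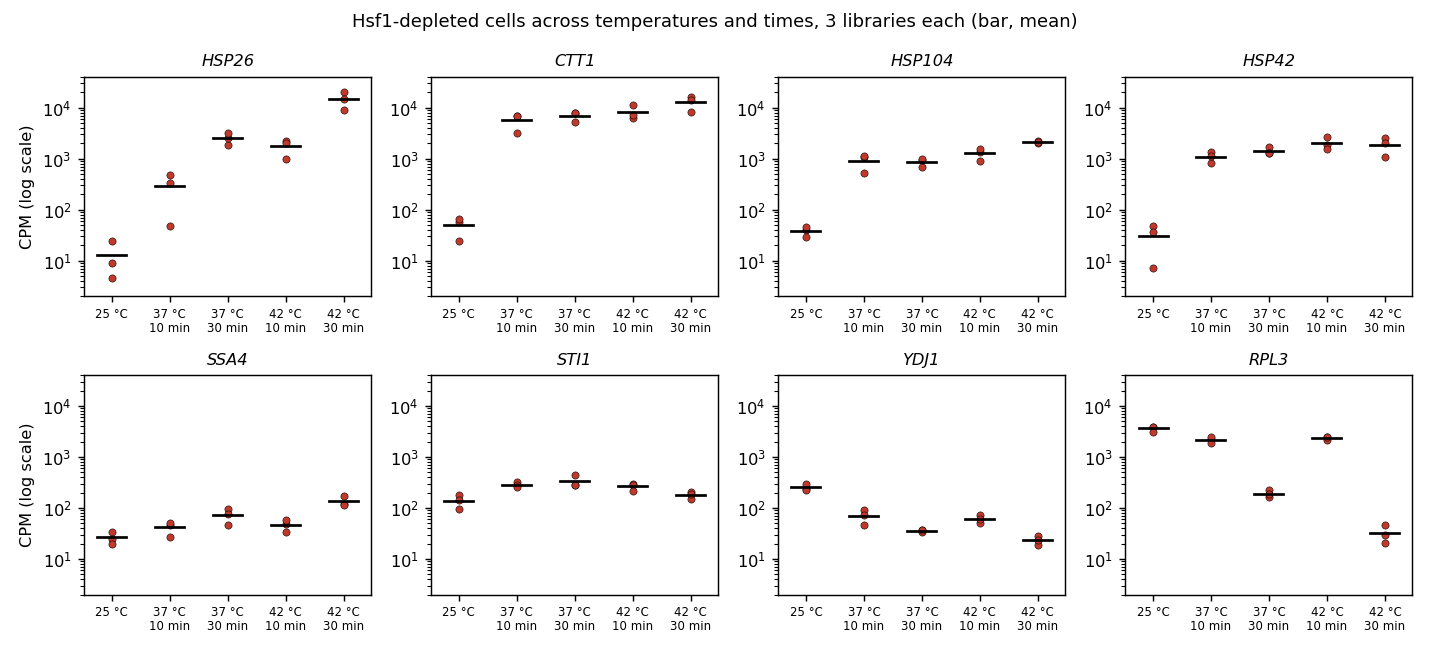
CPM on a log axis (the same range in each panel) of 8 genes in Hsf1-depleted cells at 25 °C, after 10 and 30 min at 37 °C and after 10 and 30 min at 42 °C (points are the 3 libraries, bars their mean). Each library of a heated condition lies above all 3 at 25 °C for HSP26, CTT1, HSP104 and HSP42, SSA4 reaches its highest level, 117.3 to 170.5 CPM, at 42 °C for 30 min, and YDJ1 and RPL3 are lowest there.

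The names of the deposited tables carry a library set, whose meaning is not given in the sources used here. For Hsf1-depleted cells 3 sets, B4 to B6, each hold 1 library of either group. Wild-type libraries are in the same sets, and double loss libraries are in B1 to B3. Strain and set therefore cannot be told apart in levels compared with double loss. In the difference of responses a shift shared by both temperatures of a set cancels, but a set effect that differs by temperature does not. Within sets, 1773 of the 1808 genes that rose were higher at 42 °C in each of the 3 sets and 1587 of the 1651 that fell were lower. These genes were called from the same 6 libraries and most had groups without overlap, so this agreement was largely fixed in advance. Relative to wild type the counts depended on scaling and on single libraries. The differences contain the same 6 Hsf1-depleted libraries. With library totals in place of TMM, 774 responses were higher and 73 lower than in wild type, with the median over all genes at 0.86 in place of 0.06. Without replicate 1 of the Hsf1-depleted 25 °C group 16 were higher and 111 lower, and without replicate 2 of that group 72 were higher and 221 lower.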

How the data were processed

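Poly(A) RNA of 60 yeast libraries (20 groups of 3) was sequenced as single reads of 50 bases. The deposited gene counts were made by the authors with featureCounts 2.0.0 on build R64 after bcl2fastq 1.8.4, per the submitters' processing notes. How multi-mapping reads and strand were handled is not stated there or in the labels. For each heat condition over 25 °C the authors' deposited table gives a log2 fold change and an FDR (a q-value) per gene, made with DESeq2 1.28.1 or DESeq, per the submitters' processing notes.

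Counts of 7126 features were read as deposited. With edgeR 4.0.16 in R 4.3.3, filterByExpr kept 6070 and removed 1056, libraries were scaled by TMM, and all 60 libraries entered 1 quasi-likelihood fit with a mean per group (40 residual degrees of freedom). The heat response and its differences from wild type and from double loss were contrasts of that fit, two-sided, with Benjamini-Hochberg adjusted p-values over all genes tested and calls at adjusted p under 0.05 and a log2 change of at least 1. The scripts were tested on simulated data. Depth was 3848210 to 10142858 counts per library, and the limit for 0 counts was set at 3 counts.

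Named genes were HSF1, MSN2 and MSN4, the 15 largest rises and 15 largest falls, the 10 highest and 10 lowest of each difference (called, named by a symbol, mean log2 CPM 3 or more; for rises and falls, groups without overlap), and list members described. The members and gene lists were chosen with earlier results of these data known. PRB1, SED1, HSP150 and PDC1, named for their share of counts, were chosen after their values were seen. Promoters are 500 bases before the start codon from the RefSeq R64 genome, and 6048 features matched its gene table. Features not matched held 0.459% of counts. Genes that overlap another gene, such as HSF1, SSA1, CPR6, PGK1, NSR1, SSB1, NAG1, RGI1, KTR5, IRC16, NOP56, NOP58, CDC19 and GLK1, are uncertain where counting ignored strand. Alternatives covered scaling, filter, tool (DESeq2 1.42.0), samples in the fit, replicate number as a block, library set, thresholds and leaving out libraries.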

Additional observations from a re-analysis of the deposited data

Results flagged for a closer look

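The heat response of Hsf1-depleted cells differed from that of wild type for 40 genes that responded more and 158 that responded less, by the test of the difference itself. From double loss it differed for 562 genes that responded more and 571 that responded less.

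Genes called in opposite directions in the 2 strain states were singled out next. The difference of response (Hsf1-depleted minus wild type, log2) was called for each, which this choice of genes largely fixed in advance. Among chaperones and their partners it was -5.25 for SSE1, -4.61 for YDJ1, -5.86 for ZPR1, -4.12 for YAR1, -5.02 for FES1 and -3.77 for HSP10. Among glycolytic genes it was -3.95 for TDH2, -3.20 for TDH3 and -3.01 for PGK1. For APA1 it was -4.80, for TIP1 -4.62, for YGR210C -4.44, for CSA1 -2.41 and for SEC24 -2.04. The SEC24 call was lost without any of 6 single libraries, and the CSA1 call with library totals and without any of 4 single libraries. VPS62, next to BTN2, was the 1 gene with a positive difference, 3.11.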

How the results depend on the processing

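The counts of the heat response stayed within 1.5 times of 1808 and 1651 under each alternative run, with 1850 to 1932 that rose and 1518 to 1583 that fell when single libraries were left out. The differences moved more, and the cause was not tested. From wild type, 774 were higher and 73 lower with library totals (91.4% of calls higher, in place of 20.2%), 98 higher and 266 lower with a term for library set, 18 higher with the compared groups alone, 23 higher with the MSN-intact libraries and 16 higher at an adjusted p under 0.01. Leaving out single libraries gave 16 to 72 higher and 111 to 221 lower. From double loss, 911 were higher and 916 lower without the 4 libraries farthest from their groups (chosen after seeing the data), 372 lower with the compared groups alone and 328 lower at an adjusted p under 0.01, and single libraries gave 474 to 719 higher and 407 to 626 lower. Replicate numbers did not pair the samples (same-number correlations of deviations -0.486, -0.46 and -0.298). With the number as a replicate block 1823 rose and 1641 fell, 42 and 162 differed from wild type, and 576 and 587 from double loss. SSE2 was then called lower than in wild type (-1.36). Each listed alternative was run. No named gene called for a response or a difference changed sign in any of them, while the balance of calls from wild type turned with library totals, as given above. Genes near the limit of 3 counts, such as NIP7, IRC16 and NSA2, have imprecise fold changes.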
